A study of Mus musculus with 10 samples.

Results

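The genes described here encode 9 mucin O-glycosylation enzymes, Galnt3, Galnt4, Galnt7, Galnt10, Galnt12, C1galt1, C1galt1c1, B3gnt6 and St6galnac1. They were taken by gene symbol, keeping for each gene the probe set that read highest on average, and each of the 9 had exactly 1 probe set among the 22180 genes measured. Expression was measured on 10 microarrays, each hybridised with amplified RNA from mouse intestinal cells sorted by flow cytometry, and the values are log2 intensities. The 6 Lgr5-high arrays came from stem cells of C57BL/6J mice carrying the Lgr5-EGFP-IRES-creERT2 allele, an EGFP and inducible Cre insertion at the stem cell receptor gene Lgr5. The 4 Flattop arrays came from crypt cells of mice carrying FltpT2AiCre, a Cre at the Flattop gene Cfap126, together with Gt(ROSA)26mTmG, a membrane colour reporter, on a background of C57BL/6J, CD1 and 129/SvJ. A Cre-switched reporter stays on in descendants of a cell that once expressed the Cre. All mice were 3 to 6 months old and no treatment is given in the labels. Genotype, strain and cell population changed together between the groups, so they cannot be told apart. The comparison asks how crypt cells marked by Flattop differ from Lgr5-high stem cells, here in the enzymes that build mucin glycans.

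Mucins leave the cell as heavily glycosylated proteins, and in the gut most of these glycans are O-linked to serine or threonine. Polypeptide GalNAc-transferases (the Galnt family) start each chain in the Golgi by adding N-acetylgalactosamine. The chain is then extended to core 1 by C1galt1, which needs the chaperone C1galt1c1 (also called Cosmc), or to core 3 by B3gnt6, and it can be stopped early by St6galnac1, a sialyltransferase that makes the sialyl-Tn cap. Goblet cells, whose main product is the gel-forming mucin Muc2, depend on this machinery.

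None of the 9 enzymes passed the test between the groups, although 8 of the 9 differences were positive, that is, higher in Flattop cells, beside 38.5% of all genes. The differences ranged from -0.28 for St6galnac1 to 1.39 for Galnt12 on the log2 scale, with a median of 0.88, where the median over all genes was -0.06. In limma, fitted on all genes with Benjamini-Hochberg adjustment and a threshold of 0.05, 0 of the 9 were called, beside 203 of all genes (0.915%). Of these 203 calls, 200 were higher and 3 lower in Flattop cells. At an unadjusted p under 0.05, 5 members were higher and 0 lower, beside 5.98% and 3.8% of all genes. Groups did not overlap for 0 of the 9, beside 2.98% of all genes. In sorted bulk samples a change in the share of cells of a type and a change in RNA per cell cannot be told apart.

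Facts of the whole series set the frame. Over all probe sets, pairs of Flattop arrays had Pearson correlations of 0.869 to 0.941, pairs of Lgr5-high arrays 0.854 to 0.915, and pairs across the groups 0.825 to 0.931. Array medians lay between 4.56 and 4.77. Cfap126 itself differed by 0.43 (SE 0.31, limma adjusted p = 0.678) and Lgr5 by -1.10 (SE 0.51, limma adjusted p = 0.533), so neither of the genes that name the groups was called. Whether replicates are separate animals is not stated in the labels, and the p-values then describe sample-to-sample spread that may be technical. The sample titles carry numbers in 2 ranges, 1 to 8 and 38 to 46, and each range holds 2 Flattop and 3 Lgr5-high arrays. The labels do not say what these numbers mark.

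Promoter sequence was at hand for 3 of the 5 members with an unadjusted p under 0.05, Galnt3, Galnt7 and C1galt1. The 250 bases before the transcription start are shown, 5′ to 3′ on the gene's strand, from the RefSeq promoter table of build GRCm38.p6, which held 4 of the 9 members. Capitals mark matches on either strand to the GC box GGGCGG, to the E-box CAGGTG and to CCGGAT, which holds the GGAT core preferred by the goblet cell factor Spdef.
Galnt3, chr2:66124794-66125043, minus strand: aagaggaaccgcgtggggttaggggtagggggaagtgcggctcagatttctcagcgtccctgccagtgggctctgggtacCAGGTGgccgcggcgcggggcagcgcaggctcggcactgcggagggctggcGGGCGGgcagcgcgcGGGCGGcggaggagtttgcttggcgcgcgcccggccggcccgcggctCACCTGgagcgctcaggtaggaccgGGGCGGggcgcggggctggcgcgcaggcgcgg
Galnt7, chr8:57653056-57653305, minus strand: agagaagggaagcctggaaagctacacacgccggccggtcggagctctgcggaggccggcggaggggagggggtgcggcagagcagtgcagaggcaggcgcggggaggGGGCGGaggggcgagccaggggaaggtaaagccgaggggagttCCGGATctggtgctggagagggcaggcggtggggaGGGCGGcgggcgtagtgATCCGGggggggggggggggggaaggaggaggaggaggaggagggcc
C1galt1, chr6:7844974-7845223, plus strand: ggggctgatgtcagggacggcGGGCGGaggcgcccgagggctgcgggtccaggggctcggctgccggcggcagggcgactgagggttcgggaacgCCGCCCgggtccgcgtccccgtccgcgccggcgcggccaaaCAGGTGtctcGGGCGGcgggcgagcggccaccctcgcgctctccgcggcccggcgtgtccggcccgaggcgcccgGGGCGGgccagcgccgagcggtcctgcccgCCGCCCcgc
All 3 stretches were rich in G and C, at 76.8%, 73.6% and 82.8%, where the median of 32851 promoters was 52.4%. The GC box matched 3 times in Galnt3, 2 times in Galnt7 and 5 times in C1galt1, and 32.7% of all promoters held it. CAGGTG matched 2 times in Galnt3 and 1 time in C1galt1 (17.2% of all promoters), and CCGGAT matched 2 times in Galnt7 (4.9% of all promoters). None of the matched stretches overlapped one another. The E-box CAGCTG, held by 13.0% of all promoters, had no match in these 3 windows. Nor did another E-box, CATCTG (14.4% of all promoters). The cyclic AMP response element core TGACGT (6.5% of all promoters) was likewise without a match there. The window of Galnt10, the fourth member in the table, is not shown: it had 64.4% G and C and no match to any of the other motifs searched, but 1 match to CATCTG. The shares are over all promoters, which were not matched to these windows in G and C content. A match is a description of the letters and not a measured binding site.

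**Figure D1:**
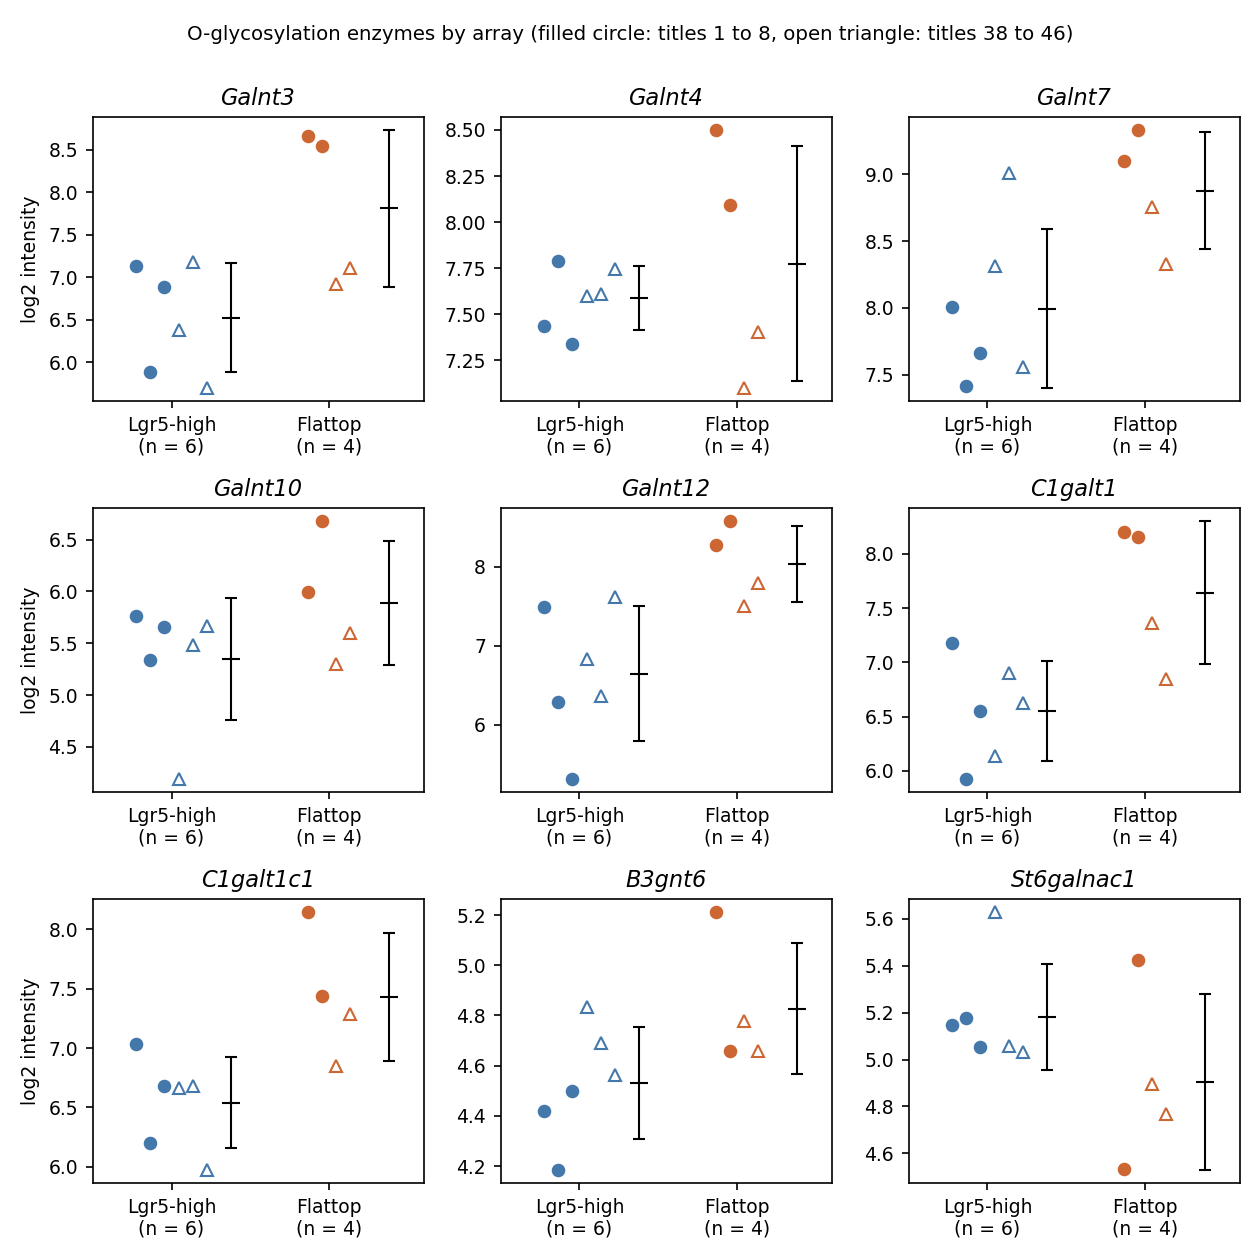
Log2 intensity of each of the 9 enzymes on the 6 Lgr5-high and 4 Flattop arrays, 1 panel per gene with its own vertical scale. Filled circles are arrays with titles 1 to 8, open triangles those with titles 38 to 46, in order of replicate number, and the black bars give mean ± SD. The groups overlap in every panel, and for Galnt3, Galnt4, Galnt7, Galnt10, Galnt12, C1galt1 and C1galt1c1 both Flattop circles lie above both Flattop triangles.

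Of the 5 initiating transferases, Galnt3 and Galnt12 had the widest gaps between group means. Galnt3 (Entrez gene 14425, chromosome 2), a Golgi enzyme known for glycosylating the phosphate hormone Fgf23, read 8.66, 8.55, 6.93 and 7.11 in Flattop replicates 1 to 4. In the 6 Lgr5-high arrays it ran from 5.70 through a median of 6.63 to 7.18. Flattop replicates 1 and 2 stood more than 1 log2 unit above every Lgr5-high array, while replicates 3 and 4 lay inside the Lgr5-high range. The group means were 7.81 ± 0.92 (SD, n = 4) and 6.53 ± 0.64 (SD, n = 6), and their difference of 1.28 (SE 0.43, 95% interval 0.33 to 2.24) did not pass limma (adjusted p = 0.324).

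Galnt12 (Entrez gene 230145, chromosome 4), an enzyme of the digestive tract that is mutated in some human colorectal cancers, read 8.27, 8.57, 7.50 and 7.79 in the Flattop arrays. In Lgr5-high arrays it ran from 5.31 through a median of 6.59 to 7.61. Flattop replicate 3 was the array that overlapped the Lgr5-high range, where Lgr5-high replicate 6 was highest. Its Flattop mean was 8.03 ± 0.48 (SD, n = 4) and its Lgr5-high mean 6.65 ± 0.86 (SD, n = 6). The gap of 1.39 (SE 0.42, 95% interval 0.46 to 2.32), or 2.61-fold in intensity, gave a limma adjusted p of 0.252.

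Galnt7 and Galnt10 act on peptides that already carry a first GalNAc, filling in neighbouring sites. Galnt7 (Entrez gene 108150, chromosome 8) read 9.10, 9.33, 8.76 and 8.33 in the Flattop arrays, and 7.41 to 9.01 with a median of 7.83 in Lgr5-high arrays. Lgr5-high replicate 5, at 9.01, exceeded Flattop replicates 3 and 4. The difference was 0.88 (SE 0.32, 95% interval 0.19 to 1.58, limma adjusted p = 0.361). Galnt10 (Entrez gene 171212, chromosome 11) read 6.00, 6.68, 5.30 and 5.60 in the Flattop arrays and 4.19 to 5.76 with a median of 5.57 in Lgr5-high arrays. Its lowest value came from Lgr5-high replicate 4, with the next array at 5.34, and the difference of 0.54 (SE 0.34, 95% interval -0.21 to 1.30) was not called (limma adjusted p = 0.640). Without that array it was 0.31 (limma adjusted p = 0.760), and without Flattop replicate 2 it was 0.28 (limma adjusted p = 0.899).

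Galnt4 (Entrez gene 14426, chromosome 10), which also prefers partly glycosylated substrates, was split within the Flattop group. It read 8.499 and 8.09 in Flattop replicates 1 and 2, above all Lgr5-high arrays (7.34 to 7.79, median 7.61), and 7.10 and 7.40 in replicates 3 and 4, of which the former lay below all of them. Its group means of 7.77 ± 0.64 (SD, n = 4) and 7.59 ± 0.17 (SD, n = 6) differed by 0.19 (SE 0.25, 95% interval -0.36 to 0.73, limma adjusted p = 0.823), and the difference was -0.06 without Flattop replicate 1. In the RefSeq annotation Galnt4 overlaps the centriole gene Poc1b, so which of the overlapping transcripts its probes read is uncertain. Galnt7, Galnt10 and Galnt12 overlap noncoding RNA genes, and Galnt7 also a pseudogene, so the same limit holds for them.

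Both genes of core 1 synthesis read higher on average in the Flattop arrays, without a call. C1galt1 (Entrez gene 94192, chromosome 6), the core 1 galactosyltransferase, read 8.21, 8.16, 7.36 and 6.85 in the Flattop arrays and 5.92 to 7.18 with a median of 6.59 in Lgr5-high arrays. Only Flattop replicate 4 fell inside the Lgr5-high range. Means of 7.64 ± 0.66 (SD, n = 4) and 6.55 ± 0.46 (SD, n = 6) gave a difference of 1.09 (SE 0.32, 95% interval 0.39 to 1.79), and its limma adjusted p of 0.226 was the smallest of the 9. C1galt1c1 (Entrez gene 59048, chromosome X), the chaperone without which C1galt1 does not fold, read 8.15, 7.44, 6.85 and 7.28 in the Flattop arrays and 5.97 to 7.03 with a median of 6.68 in Lgr5-high arrays. Here Flattop replicate 3 was the array that overlapped, and the difference was 0.89 (SE 0.27, 95% interval 0.30 to 1.48, limma adjusted p = 0.240).

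The core 3 enzyme and the sialyl-Tn cap enzyme showed smaller differences at lower readings. B3gnt6 (Entrez gene 272411, chromosome 7), the core 3 synthase of the gut, read 5.21, 4.66, 4.78 and 4.66 in the Flattop arrays and 4.18 to 4.83 with a median of 4.53 in Lgr5-high arrays. Flattop replicate 1 alone lay above the Lgr5-high range, and the difference was 0.30 (SE 0.16, 95% interval -0.06 to 0.65, limma adjusted p = 0.598). Without that array it was 0.17 (limma adjusted p = 0.848). St6galnac1 (Entrez gene 20445, chromosome 11) read 4.53, 5.42, 4.89 and 4.77 in the Flattop arrays and 5.03 to 5.63 with a median of 5.10 in Lgr5-high arrays. It was the member with a negative difference, -0.28 (SE 0.19, 95% interval -0.69 to 0.13, limma adjusted p = 0.663), and 3 of the 4 Flattop arrays lay below every Lgr5-high array. It was -0.16 without Flattop replicate 1 (limma adjusted p = 0.882) and -0.45 without Flattop replicate 2 (limma adjusted p = 0.463). All readings of both genes lay within 1 log2 unit of the median of all values (4.702), and without detection calls it is not known how far they stand above background.

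The plot of values by array shows the Flattop arrays falling into a higher and a lower pair for most enzymes, and the pairs follow the title ranges. For all 9 enzymes the signed difference, Flattop minus Lgr5-high, was greater within titles 1 to 8 than within titles 38 to 46, beside 42.8% of all genes. For St6galnac1 it was negative in both, at -0.15 and -0.41, so its gap was wider in the second range. The median difference of the 9 was 1.15 in the first range and 0.33 in the second. Galnt3 differed by 1.97 (SE 0.39) and by 0.60 (SE 0.44), Galnt12 by 2.06 (SE 0.61) and by 0.72 (SE 0.39), and C1galt1 by 1.63 (SE 0.38) and by 0.55 (SE 0.30). Galnt4 differed by 0.77 (SE 0.24) in the first range and by -0.40 (SE 0.18) in the second. No member passed within either range (limma adjusted p from 0.124 for Galnt7 in the first range to 0.988 for B3gnt6 in the second), where 77 genes (0.347%) and 85 genes (0.383%) of all were called.

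The change of the group difference between the ranges was tested as an interaction term. None of the 9 passed with adjustment over all genes, where 2 genes did (0.00902%). Galnt4 had an interaction of -1.18 (SE 0.29, unadjusted p = 0.00323, limma adjusted p = 0.456) and Galnt7 one of -1.27 (SE 0.54, unadjusted p = 0.0447, limma adjusted p = 0.668). At an unadjusted p under 0.05, 3.77% of all genes had a negative interaction.

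**Figure D2:**
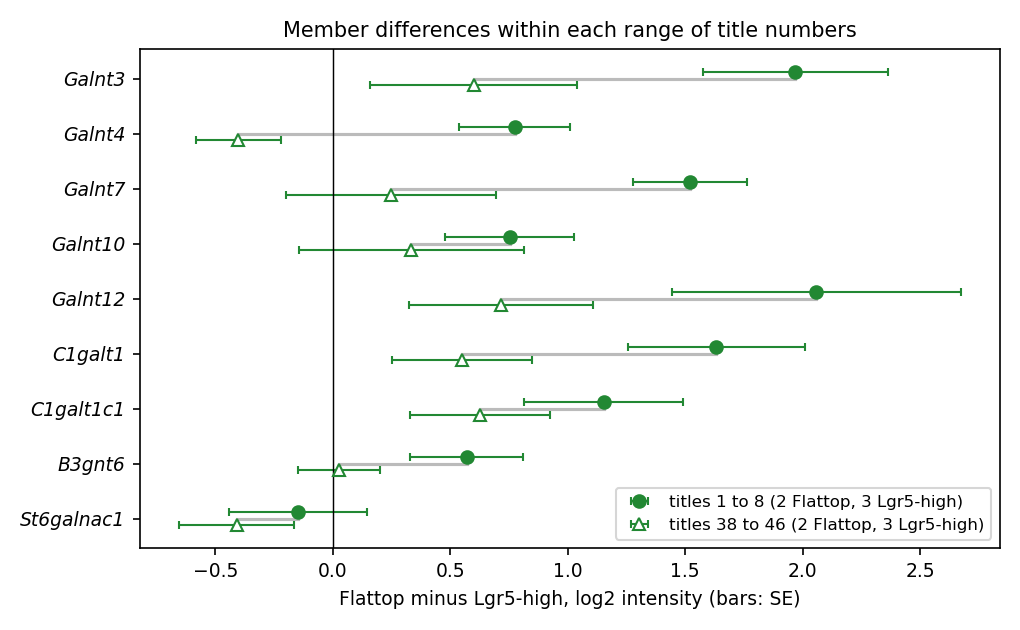
Difference between Flattop and Lgr5-high means of each enzyme in log2 units within titles 1 to 8 (filled circles) and within titles 38 to 46 (open triangles), with bars of 1 SE from limma, each from 2 Flattop and 3 Lgr5-high arrays. The circle lies to the right of the triangle for all 9 enzymes, and Galnt4 lies on opposite sides of 0, at 0.77 and -0.40.

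Around the group means, the members varied together to different degrees. Of the 36 pairs of members, 30 had a positive Pearson correlation of their deviations from the group means over the 10 arrays, with a median of 0.35. The share of positive pairs among all genes was not computed, so these counts have no background. Galnt3 went most closely with C1galt1c1 (r = 0.86) and with C1galt1 (r = 0.81), and C1galt1 with C1galt1c1 at r = 0.60. Among the 3 genes whose promoter sequences are given, Galnt3 and Galnt7 had r = 0.69 and Galnt7 and C1galt1 r = 0.59. Galnt10, whose window held none of the motifs marked in those sequences, had r = 0.65 with C1galt1, 0.49 with Galnt3 and 0.06 with Galnt7. A link between promoter letters and these correlations was not tested. Against the mean deviation of all 9, C1galt1 (r = 0.90) and Galnt3 (r = 0.88) followed it most and St6galnac1 least (r = 0.13). All genes share the same arrays and their mixtures of cells, and a member's own values enter the mean it is set against.

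Among genes outside the 9, the deviations most like the members' mean were those of Prom1 (r = 0.97), Pcmtd2 (r = 0.97), Trip10 (r = 0.97), Qtrt2 (r = 0.97) and Cenpf (r = 0.96), over 10 arrays. Spearman correlations were 0.94 to 0.99, and without the 2 arrays farthest from the median the Pearson values were 0.95 to 0.96. Prom1 encodes the membrane protein prominin-1 and Cenpf a kinetochore protein. Between the groups both had negative differences, of -0.82 (SE 0.29, limma adjusted p = 0.363) and -0.85 (SE 0.38, limma adjusted p = 0.497). These are the highest of all genes searched, picked for that.

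Muc2, the main substrate in goblet cells, was called higher, and none of the 9 enzymes was called. The differences of the 9 ran from -0.28 to 1.39, and whether that of Muc2 was greater than theirs was not tested. Muc2 read 12.69, 13.03, 12.86 and 12.28 in the Flattop arrays and 10.39 to 11.79 with a median of 11.24 in Lgr5-high arrays. The groups did not overlap, and the difference of 1.51 (SE 0.27) passed limma (adjusted p = 0.0313). A second Muc2 probe set gave 2.03. The call was lost in 10 of 20 alternatives, among them leaving out Flattop replicate 1, 2 or 3 or Lgr5-high replicate 3, 4 or 6. Over the 10 fits without 1 array its adjusted p ran from 0.0269 to 0.104 and the difference from 1.35 to 1.66. The Flattop order of Muc2 was not that of the enzymes: across arrays its deviations had r = -0.09 with the members' mean. The trefoil peptide Tff3 had r = 0.64, the secretory lineage factor Atoh1 r = 0.65 and the goblet factor Spdef r = 0.43. The stem cell gene Lgr5 had r = 0.64 as well, so such values were not particular to secretory genes. The mucus protein Fcgbp had r = 0.52 and the enterocyte marker Alpi r = -0.24. Without the 2 arrays farthest from the median, r was 0.68 for Tff3, 0.57 for Atoh1, 0.225 for Spdef, 0.37 for Lgr5 and -0.29 for Muc2.

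Markers of other cells moved between the groups beside the enzymes. All 14 goblet markers had positive differences, beside 38.5% of all genes, with a median of 1.61. Of these markers 7 were called higher in limma, beside 0.915% of all genes called. At an unadjusted p under 0.05, 13 were higher, beside 5.98% of all genes. The mean level of the goblet markers per array ran from 9.01 to 10.21 in Flattop and from 7.05 to 8.24 in Lgr5-high. In Flattop replicates 1 to 4 the goblet means were 10.21, 9.81, 9.01 and 9.11, and the means of the 9 enzymes were 7.40, 7.43, 6.61 and 6.64. Both sets were higher in replicates 1 and 2 than in 3 and 4. The same split was seen in the stem cell markers (8.86, 9.22, 8.05 and 8.42) and in the tuft markers (6.57, 6.45, 5.65 and 5.83). It was also seen in other protein glycosylation genes (7.92, 7.85, 7.50 and 7.54) and in the sugar donor genes (7.60, 7.53, 6.87 and 7.18). The split was thus not particular to goblet markers and enzymes. The mucus protein Fcgbp rose by 2.37 (SE 0.19, limma adjusted p = 0.000162), while Spdef (0.88, limma adjusted p = 0.112) and Atoh1 (1.80, limma adjusted p = 0.309) were not called.

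Of 11 lymphocyte markers 10 were called higher, beside 0.915% of all genes called, and the median difference of the list was 5.003. Their means in Flattop replicates 1 to 4 were 8.31, 8.81, 10.54 and 9.93, against 4.41 to 4.85 in Lgr5-high, so the Flattop arrays with most lymphocyte signal had the lower enzyme readings. Ptprc, the pan-leukocyte phosphatase, had r = -0.72 with the members' mean deviation, and Cfap126 r = -0.80. The stem cell markers averaged 8.86, 9.22, 8.05 and 8.42 in the Flattop arrays and 9.14 to 9.63 in Lgr5-high, and 0 of 10 were called in limma. At an unadjusted p under 0.05, 6 of the 10 were lower, beside 3.8% of all genes. All 11 enterocyte markers had positive differences and 7 were called higher, with means of 9.42 to 10.64 in Flattop and 6.86 to 7.77 in Lgr5-high. Within titles 1 to 8 and within titles 38 to 46 the median difference was 2.63 and 0.76 for goblet markers, 3.93 and 6.04 for lymphocyte markers, and -0.44 and 0.97 for dissociation response genes. The part of these cell types and of dissociation in the enzyme readings was not tested.

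**Figure D3:**
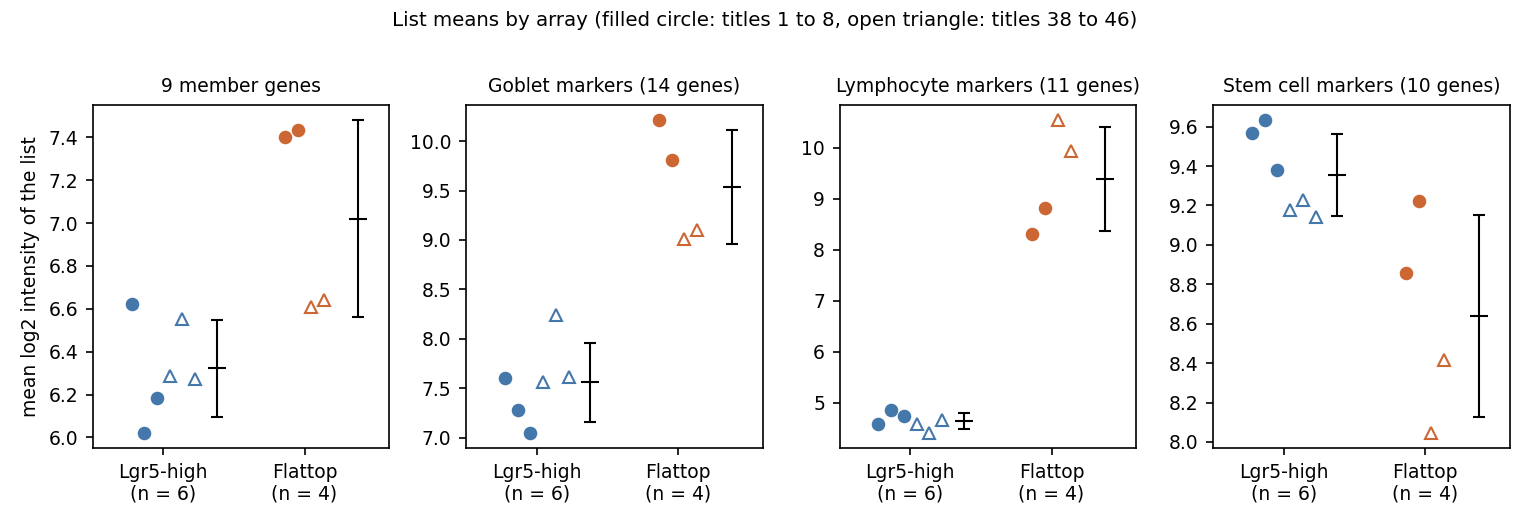
Mean log2 intensity per array of the 9 enzymes and of the goblet, lymphocyte and stem cell marker lists, each panel with its own vertical scale. Symbols are as in the plot of enzymes by array and black bars give mean ± SD over arrays. In Flattop cells the enzyme, goblet and stem cell marker means are higher in titles 1 to 8. The lymphocyte means are higher in titles 38 to 46.

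The other GalNAc-transferases gave no call either. Of 14 measured, 0 passed limma, beside 0.915% of all genes, and the median difference was -0.08. At an unadjusted p under 0.05, 2 were higher, beside 5.98% of all genes. Galnt6, the closest relative of Galnt3, read 8.14, 7.50, 7.18 and 7.004 in the Flattop arrays and 5.45 to 6.996 in Lgr5-high, so that its groups were just apart, with a difference of 1.26 (SE 0.31, limma adjusted p = 0.126). Galnt5 read 6.04, 5.92, 4.99 and 4.52 against 3.98 to 4.83, with a difference of 1.06 (SE 0.30, limma adjusted p = 0.196). Most Lgr5-high readings of Galnt5 lay below the median of all values (4.702), so the size of its difference is uncertain. Galnt2 and Galnt1, initiating enzymes of wide expression, differed by 0.20 and 0.38 (limma adjusted p = 0.674 and 0.737).

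Branching and extension enzymes were not called, with 0 of 11 past limma, beside 0.915% of all genes, and a median difference of 0.11. At an unadjusted p under 0.05, 2 were higher, beside 5.98% of all genes. Gcnt3, which makes the core 2 and core 4 branches of mucins, read 10.06, 8.28, 8.63 and 7.44 in the Flattop arrays and 6.05 to 7.54 in Lgr5-high. It had the largest difference of the list at 1.92 (SE 0.47, limma adjusted p = 0.124), with Flattop replicate 4 inside the Lgr5-high range. Gcnt1, another core 2 enzyme, differed by 0.55 (limma adjusted p = 0.382). A4gnt and B3gnt3 differed by 0.28 and -0.26 (limma adjusted p = 0.612 and 0.693).

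Capping enzymes held 2 of the calls, both higher, among 18 measured (median difference 0.10). Over all genes 0.915% were called, 200 of the 203 calls being higher. St3gal1, which sialylates core 1, read 5.75, 5.81, 6.82 and 6.01 in the Flattop arrays and 4.50 to 5.02 in Lgr5-high, and rose by 1.26 (SE 0.21, limma adjusted p = 0.0192). Its highest array, Flattop replicate 3, was also highest in the lymphocyte markers (10.54), whose part in this result was not tested. The Lgr5-high readings of St3gal1 lay around the median of all values (4.702), so the size of its difference is uncertain. Gal3st2, which sulfates the galactose of O-glycans, read 7.98, 9.83, 9.01 and 9.62 against 6.41 to 7.93 and rose by 2.01 (SE 0.38, limma adjusted p = 0.0379). Leaving out any of 8 arrays singly ended the call of Gal3st2, all but replicate 1 of each group (adjusted p 0.0719 to 0.1199), and leaving out Flattop replicate 4 ended that of St3gal1 (adjusted p = 0.0512). St3gal1 was not called within titles 1 to 8 (0.87, limma adjusted p = 0.258) or within titles 38 to 46 (1.65, limma adjusted p = 0.1605). Gal3st2 was not called within titles 1 to 8 (1.92, limma adjusted p = 0.545), within titles 38 to 46 (2.10, limma adjusted p = 0.0548) or with array weights (1.95, limma adjusted p = 0.0508).

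Among uncalled caps, St6galnac2, a sialyltransferase of the same family as St6galnac1, read 7.39, 7.63, 6.64 and 6.57 in the Flattop arrays, below all Lgr5-high arrays (7.81 to 8.06). Its difference of -0.83 (SE 0.21) did not pass limma (adjusted p = 0.1299), and it passed after a second quantile normalisation (adjusted p = 0.0143). Chst4, a GlcNAc sulfotransferase, read 6.58, 7.09, 4.66 and 5.17 in the Flattop arrays and 4.22 to 5.03 in Lgr5-high. Most of its Lgr5-high readings lay below the median of all values (4.702), so the size of its difference is uncertain. The difference of 1.40 (SE 0.42) was not called over all arrays (limma adjusted p = 0.246). Within titles 1 to 8 it was 2.48 (limma adjusted p = 0.0200) and within titles 38 to 46 it was 0.32 (limma adjusted p = 0.876), and the interaction of -2.16 was not called (limma adjusted p = 0.244).

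Supply of activated sugars and sulfate held 1 call among 16 measured genes (median difference 0.25), beside 0.915% of all genes called. Papss2, which makes the sulfate donor PAPS, read 7.04, 6.76, 5.77 and 9.01 in the Flattop arrays and 3.60 to 4.10 in Lgr5-high, and rose by 3.36 (SE 0.48, limma adjusted p = 0.00698). The call held when any 1 array was left out (adjusted p 0.000947 to 0.0230) and was lost within titles 38 to 46 (adjusted p = 0.323). Since the Lgr5-high values lay near the lower quartile of the arrays (3.59 to 3.84), the size of this difference is uncertain. Gfpt1, the entry enzyme of the hexosamine pathway, read 8.99, 8.79, 8.74 and 8.02 against 5.86 to 7.94, without overlap, and differed by 1.40 (SE 0.38, limma adjusted p = 0.178). Slc35c1, the GDP-fucose carrier, and Cmas, which activates sialic acid, differed by 0.60 and 0.40 (limma adjusted p = 0.475 and 0.503). The difference of Cmas was 0.25 without Flattop replicate 1 (limma adjusted p = 0.785), and it was 0.79 within titles 1 to 8 (limma adjusted p = 0.431) against 0.0042 within titles 38 to 46 (limma adjusted p = 0.999).

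**Figure D4:**
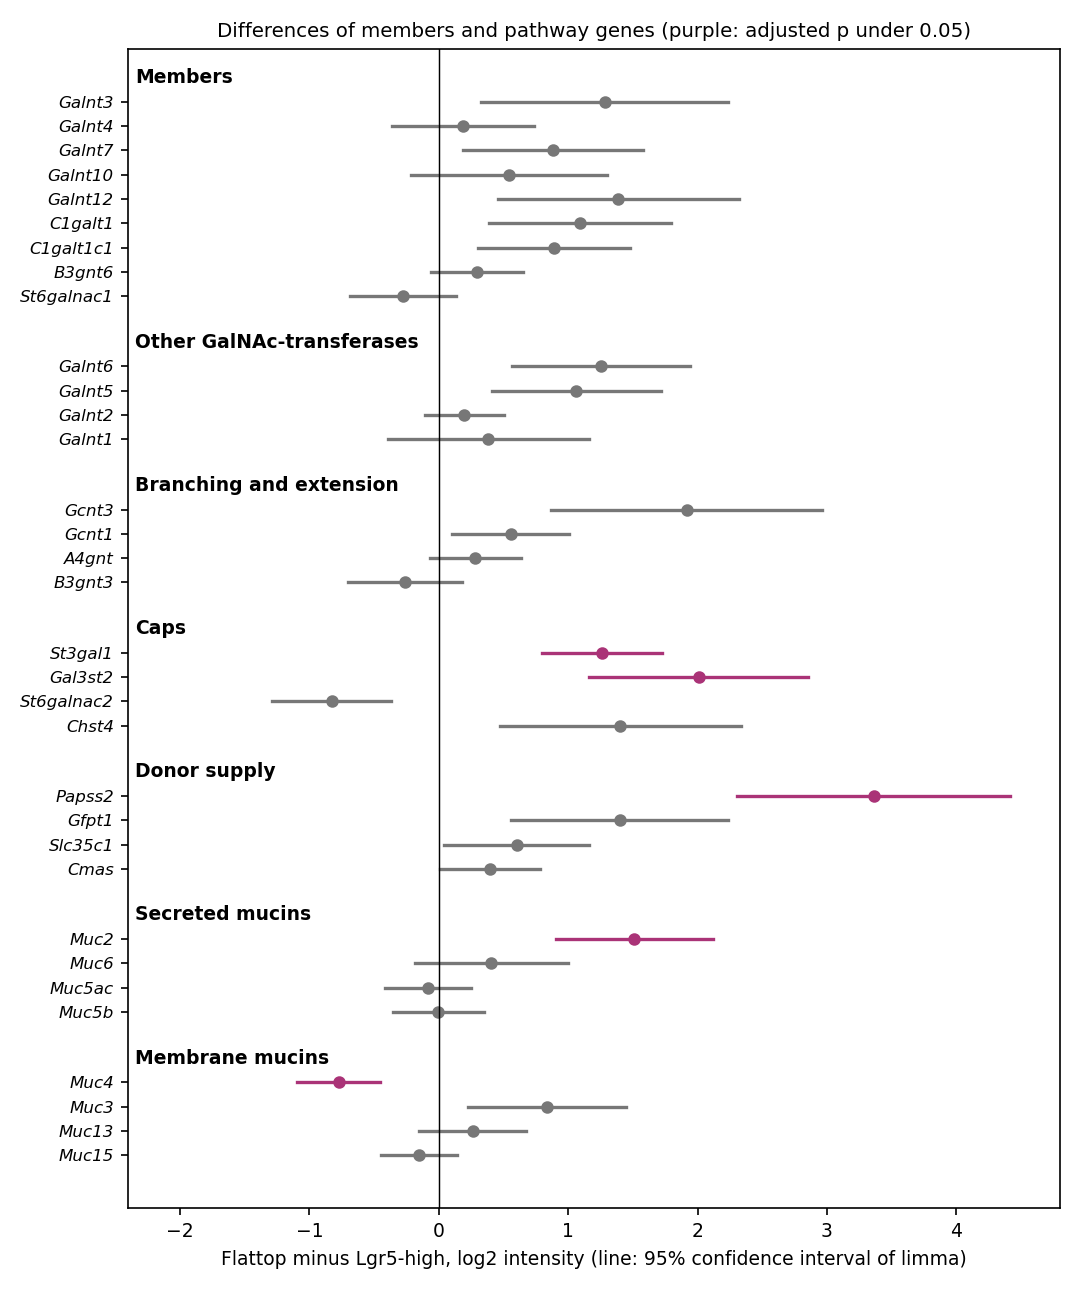
Flattop minus Lgr5-high difference in log2 intensity (points) with 95% confidence intervals from limma (lines) for the 9 members and for up to 4 genes of smallest p in each pathway list. Purple marks an adjusted p under 0.05 over all genes, reached by St3gal1, Gal3st2, Papss2, Muc2 and Muc4 and by none of the members.

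Mucins other than Muc2 gave 1 call, which was 1 of the 3 lower calls over all genes, where 0.915% were called in either direction. The membrane mucin Muc4 fell by 0.77 on the log2 scale (SE 0.14, limma adjusted p = 0.0349), a call lost in 14 of 20 alternatives. Of the fits without 1 array, the one without Flattop replicate 4 alone kept it, and the other 9 gave adjusted p of 0.0504 to 0.0862. Muc3 differed by 0.84 (SE 0.28, limma adjusted p = 0.312) and Muc13 by 0.26 (limma adjusted p = 0.678). The other secreted mucins, Muc5ac, Muc5b and Muc6, lay between -0.08 and 0.41 and were not called (limma adjusted p = 0.872, 0.997 and 0.658). Enzymes of other protein glycosylation, such as the oligosaccharyltransferase and the N-glycan branching enzymes, gave 0 of 20 calls and a median difference of 0.31. At an unadjusted p under 0.05 in limma, 3 of them were higher, beside 5.98% of all genes.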

How the data were processed

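Each probe set has a deposited log2 intensity, which the authors computed by RMA (background correction, normalisation and summary over probes) with oligo 1.38.0, per the submitters' processing notes. A genome build and the order of steps were not found in those notes. Of 41345 probe sets, 23521 had 1 gene symbol in the platform annotation, 1814 had several and 16010 were not listed. Entrez gene numbers were looked up in RefSeq (GRCm38.p6), where 23328 matched, and the probe set of highest mean represented each of 22180 genes.

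Groups were compared with limma 3.58.1 in R 4.3.3, in a two-sided test, and p-values were adjusted by Benjamini-Hochberg over the whole table (threshold 0.05). The script was tested on simulated data. Dim probe sets were kept. The members and lists were chosen with earlier results of these data known, and the interaction with title range was added on the same footing. Named pathway genes were those past the threshold and up to 4 of smallest p per list. The lists of Paneth, enteroendocrine and tuft markers and of dissociation genes had 6 of 9, 5 of 8, 0 of 6 and 0 of 10 genes called, all higher (median differences 3.17, 1.42, 0.20 and 0.30). Over all genes 203 were called (0.915%), 200 of them higher. A few genes of these lists were not analysed here. The number of arrays limits the precision. Plots were drawn with matplotlib 3.10.9.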

Additional observations from a re-analysis of the deposited data

Results flagged for a closer look

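Among the enzymes and named pathway genes, 66 sets of values (1 gene in 1 group) were examined for an array far from the others by Dixon's criterion, and 4 stood out, where chance alone gives about 1 in 20. For Galnt10, Lgr5-high replicate 4 read 4.19, with the next array at 5.34. The same array read 5.63 for St6galnac1, with the next at 5.18. Lgr5-high replicate 6 read 3.66 for the membrane mucin Muc15, with the next at 3.25, all of them dim readings. Flattop replicate 3 read 5.90 for the gastric mucin Muc6, with the next at 4.54. No interaction of group and title range passed for these genes.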

How the results depend on the processing

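The count of enzymes called stayed at 0 of 9 under all 21 alternatives (limma, with 0 to 7 of them at an unadjusted p under 0.05). The number of genes called over the whole table moved from 203 to 57 with the replicate block, 77 within titles 1 to 8, 85 within titles 38 to 46 and 311 at a threshold of 0.1, and ran from 123 to 215 when 1 array was left out, lowest without Flattop replicate 2. For the 4 shared replicate numbers, deviations of same-numbered arrays had r from -0.206 to 0.297. The same number was the best match for replicate 1 only. Whether the numbers pair the arrays is not settled by these values. Under the replicate block none of the 9 enzymes and none of St3gal1, Gal3st2, Papss2, Muc2 and Muc4 was called. Leaving out 1 array moved the median difference of the 9 enzymes between 0.65 and 0.94. Galnt4 changed sign within titles 38 to 46 (-0.40) and without Flattop replicate 1 (over the fits without 1 array it ran from -0.056 to 0.410), and no other enzyme changed sign under any of the 20 alternative fits. The cause was not tested. After a second quantile normalisation St3gal1 (adjusted p = 0.0511), Gal3st2 (0.0631), Muc2 (0.0762) and Muc4 (0.0613) missed the threshold. The standard errors of the enzymes' differences, 0.16 to 0.43, limit what 10 arrays show after adjustment, and signal over background was not known.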
